A study of Mus musculus with 11 samples.

Results

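The 44 genes described here build and use the primary cilium, the antenna-like organelle of most epithelial cells, or are mutated in cystic disease of the kidney and liver. They were chosen by gene symbol, with earlier results of these data known. Of the 44, 41 had a row among the 23185 array features that carry 1 gene symbol. Of these, 25 belong to intraflagellar transport, 9 to the BBSome and its assembly, and 7 to polycystic disease or nephronophthisis. Arl6, Arl13b and Pkd2 had no row under those symbols and were not analysed here.

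RNA came from mouse liver cells sorted for yellow fluorescent protein (YFP) out of the non-parenchymal fraction, and was hybridised to 11 MoGene 2.0 ST arrays. The deposited data hold 1 summary value per feature and array. There were 3 arrays of YFP+ cells from mice given CDE (the choline-deficient, ethionine-supplemented diet), 3 of YFP+ cells from mice given the DDC diet for 5 weeks, 2 of YFP+ cells from untreated mice (called UTR in the labels), and 3 of YFP- cells from untreated mice. The series title takes the labelled cells as biliary epithelium, the sort gate was set on wild-type mice, and dead cells were left out by a stain. The labels do not name the construct that marked the cells, the age or strain of the mice, or how long CDE was fed. The treatment protocol mentions 4 DDC mice, while there are 3 DDC arrays, so what a DDC array stands for is unclear. The labels also do not say whether arrays of the same group stem from different mice, so p-values here reflect only how much these samples vary, and that variation may be technical.

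The primary cilium grows from a centriole and has no protein synthesis of its own, so its parts are carried in and out. The IFT-B complex travels to the tip with the kinesin motor Kif3a and Kif3b, the IFT-A complex returns with the dynein motor Dync2h1, and the BBSome rides with them to move membrane proteins out of the cilium. In the liver, bile duct cells (cholangiocytes) carry a primary cilium that projects into the duct and senses bile flow, while hepatocytes lack it. Loss of cilium genes or of the cystic disease proteins gives dilated ducts, liver cysts or congenital hepatic fibrosis, often together with cystic kidneys.

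The labels were set against marker genes before the members were read. Krt19, a keratin of bile duct cells, measured 10.64 and 10.47 on the UTR arrays, against 8.28, 4.64 and 4.65 on the YFP- arrays. The mean of the 12 measured biliary markers was 9.68 to 10.17 over the 8 YFP+ arrays, against 7.84, 5.28 and 5.17 on YFP- replicates 1, 2 and 3. YFP- replicate 1 was thus the YFP- array nearest to the YFP+ cells in biliary markers, and each of those 12 genes was highest there among the YFP- arrays. It also had the highest mean of the 10 endothelial markers (11.49, with 9.61 and 10.11 on replicates 2 and 3). Lymphocyte markers averaged 9.69 on replicate 2, with 4.69 and 4.85 on replicates 1 and 3, and macrophage markers averaged 11.48 on replicate 3, with 8.84 and 8.62 on replicates 1 and 2. The YFP- arrays therefore differed in their marker make-up, and replicates 2 and 3 were low in biliary markers, although all samples are titled liver progenitor cells. The mean of the 9 hepatocyte markers was 7.79 to 8.1 on the YFP+ arrays except CDE replicate 2 (9.07), against 7.43, 8.35 and 9.03 on the YFP- arrays. That mean hides opposite signs, since 4 of the markers were higher and 5 lower on average in UTR than in YFP- cells. Their differences (log2, UTR minus YFP-) ran from -3.54 for Apoc3 to 2.45 for Hnf4a. Between arrays, Pearson's r across genes, which are not independent replicates, was 0.980 to 0.991 within YFP+ cells, 0.888 to 0.925 within YFP- cells, and 0.805 to 0.901 between YFP+ and YFP- cells. In bulk RNA of sorted cells, fewer cells of a type and less RNA per cell cannot be told apart.

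Promoter sequences are shown here because members of this system are known targets of RFX transcription factors, which bind a paired element called the X-box. RefSeq promoters (GRCm38.p6, from 250 bases before to 50 bases after the start site) were listed for 35 of the 41 members and for 17452 of all genes tested. An X-box with a spacer of 0 to 3 bases between its arms, on either strand, was found in the promoters of 2 members, 5.7% of 35, against 330 genes, 1.89% of all. Both members, Ift57 and Bbs1, are among those that were higher in UTR cells below. The matches are in capitals in these windows, given 5′ to 3′ on the gene's strand.
Ift57, chr16:49699199-49699228, plus strand: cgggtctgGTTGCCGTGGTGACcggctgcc
Bbs1, chr19:4906605-4906634, minus strand: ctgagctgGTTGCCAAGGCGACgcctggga

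The 5′ arm alone, GTTGCC on either strand (GGCAAC is its reverse complement), also lies inside every X-box match above. It was present in 13 of the 35 members' promoters (37.1%), against 2449 genes (14.03%) of all. The 13 were Ift27, Ift57, Ift88, Ift172, Traf3ip1, Ift140, Wdr35, Kif3a, Dync2h1, Bbs1, Bbs5, Bbs7 and Nphp4. This form was picked after several forms of the motif had been counted, so its share is a description. The windows of the other members that were higher in UTR cells are shown with the arm in capitals.
Wdr35, chr12:8974021-8974050, plus strand: gatgcgactgggcggcggtgGTTGCCaggc
Dync2h1, chr9:7177009-7177038, minus strand: catagcgacggagcttGGCAACtgctgagt
Ift140, chr17:25015965-25015994, plus strand: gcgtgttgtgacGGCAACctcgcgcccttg
Ift172, chr5:31291097-31291126, minus strand: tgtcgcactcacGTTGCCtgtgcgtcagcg
Bbs5, chr2:69647191-69647220, plus strand: gatgtcgtgacaaagccggcgcGTTGCCtt
Nphp4, chr4:152478131-152478160, plus strand: tggtgcatcccgGTTGCCagctgatgttgg

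The first comparison asked how the labelled cells of uninjured liver differ from the unlabelled cells around them. Many cilium transport and cystic disease genes were higher in UTR cells, and none was called lower with all 11 arrays. The difference was largest for Bicc1 (30.8-fold) and Pkhd1 (27.3-fold), and was 4.34-fold for the BBSome subunit Bbs1 and 5.34-fold for the IFT-A subunit Wdr35. Of the 41 members, 19 were higher in UTR cells (limma, Benjamini-Hochberg adjusted p under 0.05 over all genes) and 0 were lower. Of all 23185 genes tested, 10.4% were higher and 8.46% lower by the same rule. The median difference was 0.80 (log2, UTR minus YFP-) over the members and -0.01 over all genes, and 36 of 41 members had a positive difference, against 49.1% of all genes. By subgroup, the counts were 9 of 25 for intraflagellar transport, 6 of 9 for the BBSome and 4 of 7 for the cystic genes, with medians of 0.80, 0.95 and 0.58. Both UTR arrays lay above all 3 YFP- arrays for 27 members (65.9%), against 22.5% of all genes, and below them for 1 member, Ift20 (2.44%), against 20.5%.

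**Figure D1:**
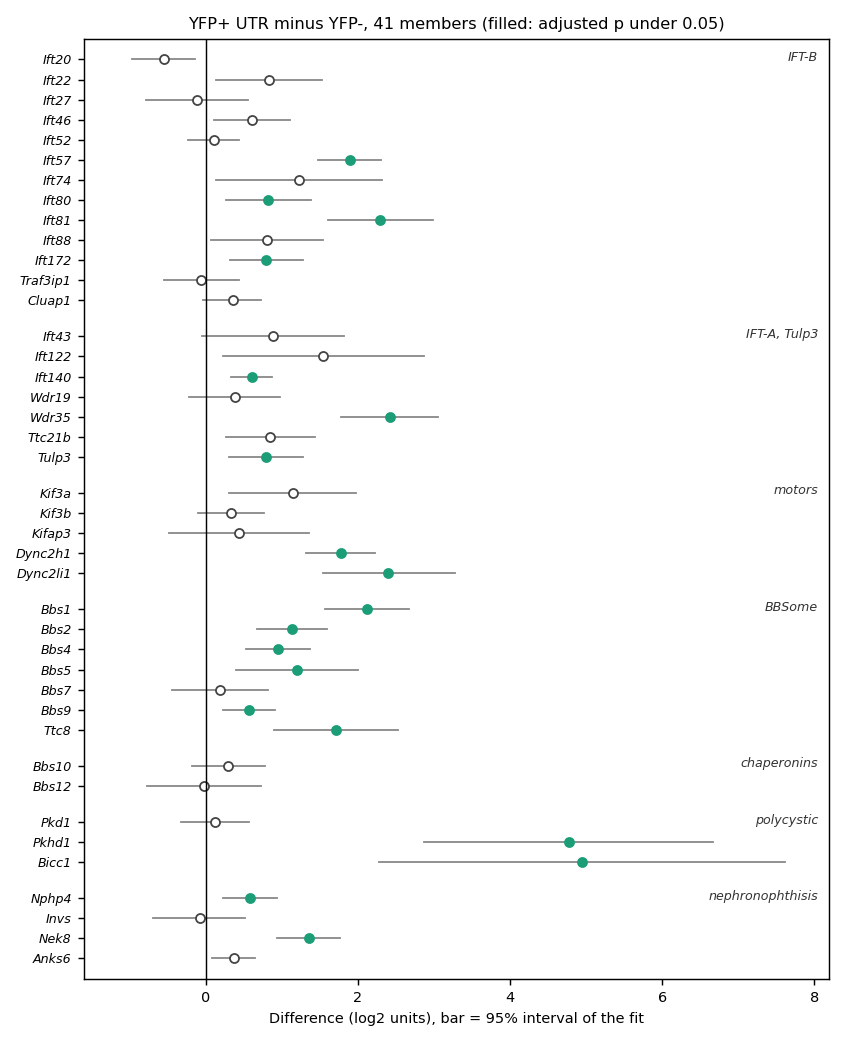
The plot shows the difference between UTR and YFP- cells (log2, UTR minus YFP-) for each of the 41 members, grouped by role, with 95% intervals from limma and filled points for adjusted p under 0.05. Filled points lie right of 0 for all 19 called members, and Pkhd1 and Bicc1 stand furthest to the right with the widest intervals.

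The size of these p-values depends on how the spread is estimated. The fit used all 11 arrays, and the median SD of the members was 0.412 over the YFP- arrays, with 0.147, 0.173 and 0.107 over the CDE, DDC and UTR arrays, so the pooled spread is too small for genes that vary more among YFP- cells. With only the 5 UTR and YFP- arrays, 7 members were called, namely Ift57, Ift81, Wdr35, Dync2h1, Bbs1, Bbs2 and Nek8, with limma adjusted p of 0.0239 to 0.0489. Over all 23185 genes, 931 were called in that fit.

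In IFT-B, the complex that carries cargo toward the tip, 4 of 13 members were higher in UTR cells. Ift57, a peripheral subunit, averaged 9.88 in CDE cells and 9.71 in DDC cells and measured 9.80 and 9.71 on the UTR arrays, against 8.22, 7.71 and 7.66 on the YFP- arrays. Every YFP+ array lay above every YFP- array, and the UTR difference was 1.89 ± 0.18 (log2, SE; 3.69-fold, limma adjusted p = 0.000231). Ift81, which forms a tubulin-binding module with Ift74, averaged 8.03 with CDE and 7.72 with DDC and measured 7.89 and 7.82 in UTR cells, against 6.17, 5.50 and 5.01 in YFP- cells. It differed by 2.29 ± 0.31 (log2; 4.9-fold, limma adjusted p = 0.00105), again with no overlap. Ift80, mutated in a human skeletal ciliopathy, averaged 6.16 with CDE and 5.97 with DDC and stood at 5.92 on both UTR arrays, against 5.14, 5.53 and 4.61 in YFP- cells, a difference of 0.82 ± 0.25 (limma adjusted p = 0.0472). Ift172, the largest subunit, averaged 7.46 with CDE and 7.29 with DDC and measured 7.43 and 7.85 in UTR cells, against 7.25, 6.67 and 6.63 in YFP- cells. Its UTR arrays lay above the YFP- arrays by 0.79 ± 0.21 (limma adjusted p = 0.0307), while 1 DDC array, at 7.08, fell below the highest YFP- array. The call for Ift80 was lost in 10 of the 11 fits that left out 1 array, and held only without YFP- replicate 2.

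The other 9 IFT-B members did not pass the test in UTR cells. Ift74 averaged 7.51 ± 0.19 (SD) with CDE, 7.47 ± 0.14 with DDC and 7.45 ± 0.06 in UTR cells, against 6.91, 4.97 and 6.81 on the YFP- arrays. All YFP+ arrays were above these, but the low YFP- replicate 2 widened the error (1.22 ± 0.48, limma adjusted p = 0.118). Ift22, a small GTPase-like subunit, averaged 8.33 ± 0.33 with CDE, 7.92 ± 0.20 with DDC and 8.34 ± 0.08 in UTR cells, against 7.51 ± 0.58 in YFP- cells. Ift46 averaged 8.81 ± 0.16, 8.91 ± 0.05 and 8.64 ± 0.25 in CDE, DDC and UTR cells, against 8.04 ± 0.41 in YFP- cells, with no overlap between YFP+ and YFP- arrays. Ift88, the gene disrupted in the Oak Ridge polycystic kidney mouse, averaged 7.31 ± 0.05, 7.09 ± 0.23 and 7.17 ± 0.16 in CDE, DDC and UTR cells, and measured 7.13, 5.77 and 6.20 on the YFP- arrays. Its UTR difference was 0.80 ± 0.33 (limma adjusted p = 0.127), and only YFP- replicate 1 reached into the range of the UTR arrays.

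Some IFT-B genes showed little difference. Ift52, a core subunit, averaged 8.93 ± 0.11, 8.73 ± 0.22 and 8.85 ± 0.01 in CDE, DDC and UTR cells, against 8.75 ± 0.14 in YFP- cells, and differed by 0.10 ± 0.15 between UTR and YFP- cells (limma adjusted p = 0.695). For Traf3ip1, a microtubule-binding subunit, the averages were 6.04 ± 0.25, 5.97 ± 0.38 and 5.84 ± 0.11, against 5.90 ± 0.09 in YFP- cells (difference -0.06 ± 0.22, limma adjusted p = 0.887). Ift27, a small GTPase-like subunit that helps BBSome cargo leave the cilium, averaged 8.69 ± 0.13, 8.41 ± 0.63 and 8.59 ± 0.12, against 8.71 ± 0.16. Cluap1 averaged 7.76 ± 0.15, 7.42 ± 0.16 and 7.86 ± 0.33, against 7.51 ± 0.12. In all 4 of these genes the UTR and YFP- arrays overlapped. Ift20, which also works at the Golgi apparatus, had the opposite sign. It measured 9.56 and 9.52 in UTR cells, against 10.12, 10.03 and 10.12 in YFP- cells, and averaged 9.62 ± 0.19 with CDE and 9.33 ± 0.32 with DDC. Every YFP+ array was below every YFP- array, and the UTR difference was -0.55 ± 0.18 (limma adjusted p = 0.0663).

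IFT-A and its adaptor Tulp3 carry cargo back from the tip and bring membrane receptors in, and 3 of these 7 genes were higher in UTR cells. Wdr35 averaged 6.94 with CDE and 6.88 with DDC and measured 7.23 and 7.13 in UTR cells, against 5.38, 4.21 and 4.69 in YFP- cells. The gap of 2.42 ± 0.28 (log2, limma adjusted p = 0.000523) was several times the spread in either group, and Wdr35 was the only member with a YFP- array (4.21) under that array's lower quartile of all genes. Ift140, a core subunit, averaged 6.88 with CDE and 7.15 with DDC and measured 6.83 and 6.97 in UTR cells, against 6.28, 6.49 and 6.14 in YFP- cells. No YFP+ array overlapped a YFP- array, and UTR cells were higher by 0.60 ± 0.12 (limma adjusted p = 0.00722). Tulp3 averaged 7.42 with CDE and 7.51 with DDC and measured 7.61 and 7.27 in UTR cells, against 7.02, 6.58 and 6.37 in YFP- cells, a difference of 0.79 ± 0.22 (limma adjusted p = 0.0324).

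The remaining 4 IFT-A genes did not pass the test in UTR cells, and each varied by an SD of over 0.5 among YFP- cells. Ift122 averaged 7.36 ± 0.10 with CDE, 7.30 ± 0.23 with DDC and 7.59 ± 0.23 in UTR cells, and measured 7.57, 5.10 and 5.47 on YFP- replicates 1, 2 and 3. YFP- replicate 1 was within the range of the YFP+ arrays and the other YFP- arrays were far below it (1.54 ± 0.59, limma adjusted p = 0.105). Ift43 averaged 10.14 ± 0.07, 9.97 ± 0.11 and 10.10 ± 0.01 in CDE, DDC and UTR cells, and measured 10.09, 8.22 and 9.35 in YFP- cells (0.88 ± 0.41, limma adjusted p = 0.182). Ttc21b averaged 7.20 ± 0.00, 6.91 ± 0.21 and 7.09 ± 0.22, against 6.24 ± 0.51, with no overlap between YFP+ and YFP- arrays (0.84 ± 0.26, limma adjusted p = 0.0509). Wdr19 averaged 6.97 ± 0.12, 6.72 ± 0.06 and 6.51 ± 0.19, against 6.13 ± 0.56, and its UTR and YFP- arrays overlapped.

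Among the motors, both dynein genes were higher in UTR cells and the kinesin genes did not pass the test. The heavy chain Dync2h1 averaged 7.0 with CDE and 7.12 with DDC and measured 6.87 and 6.95 in UTR cells, against 5.57, 4.85 and 5.00 in YFP- cells. All YFP+ arrays lay above all YFP- arrays, and the UTR difference was 1.77 ± 0.20 (3.41-fold, limma adjusted p = 0.000427). Dync2li1, the light intermediate chain of the same motor, averaged 9.06 with CDE and 8.56 with DDC and measured 9.0 and 8.84 in UTR cells, against 7.38, 5.78 and 6.40 in YFP- cells. That is a difference of 2.40 ± 0.38 (5.28-fold, limma adjusted p = 0.00254), also with no overlap. Kif3a, a motor subunit of the kinesin, averaged 8.34 ± 0.11, 8.39 ± 0.05 and 8.38 ± 0.26 in CDE, DDC and UTR cells, and measured 8.08, 6.44 and 7.22 in YFP- cells (1.14 ± 0.37, limma adjusted p = 0.0642). Its partner Kif3b averaged 7.63 ± 0.02, 7.74 ± 0.32 and 7.76 ± 0.00, against 7.42 ± 0.24 in YFP- cells. Kifap3, the kinesin's non-motor subunit, averaged 7.28 ± 0.23, 7.04 ± 0.17 and 7.31 ± 0.17, and measured 7.42, 5.87 and 7.36 on the YFP- arrays. For Kifap3 only YFP- replicate 2 was low.

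In this comparison the BBSome gave the highest share of calls of the 3 subgroups. Of its 7 measured subunits, 6 were higher in UTR cells, and neither of its assembly chaperonins was called. For the mean of the YFP+ groups its share was the lowest, with 5 of 9 genes higher. There, 17 of 25 intraflagellar transport genes and 5 of 7 cystic genes were higher, against 16.3% of all genes. The difference between subgroups was not tested. Bbs1, the subunit most often mutated in Bardet-Biedl syndrome, averaged 7.74 with CDE and 7.87 with DDC and measured 8.15 and 7.78 in UTR cells, against 5.93, 5.94 and 5.68 in YFP- cells. The YFP- arrays were close together and far below every YFP+ array, a UTR difference of 2.12 ± 0.24 (limma adjusted p = 0.00048). Ttc8, a subunit with tetratricopeptide repeats, averaged 8.31 with CDE and 7.93 with DDC and measured 8.05 and 8.10 in UTR cells, against 6.83, 5.53 and 6.73 in YFP- cells, and differed by 1.71 ± 0.36 (limma adjusted p = 0.00944). Bbs2, of the core, averaged 7.06 with CDE and 6.69 with DDC and measured 6.77 and 7.10 in UTR cells, against 5.85, 5.90 and 5.68 in YFP- cells (1.13 ± 0.20, limma adjusted p = 0.00459). Bbs4, like Ttc8 a subunit with tetratricopeptide repeats, averaged 6.68 with CDE and 6.11 with DDC and measured 6.74 and 6.21 in UTR cells, against 5.62, 5.39 and 5.58 in YFP- cells (0.95 ± 0.18, limma adjusted p = 0.00666). For Ttc8, Bbs2 and Bbs4, every YFP+ array was above every YFP- array.

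Bbs5, a lipid-binding subunit, averaged 6.23 with CDE and 5.80 with DDC and measured 6.44 and 6.56 in UTR cells, against 5.86, 4.44 and 5.60 in YFP- cells. UTR cells were higher by 1.20 ± 0.36 (limma adjusted p = 0.0448), a call lost in 8 of the 11 fits that left out 1 array, and DDC replicate 1 (5.55) lay below 2 of the YFP- arrays. Bbs9, of the core, averaged 7.48 with CDE and 7.28 with DDC and measured 7.60 and 7.91 in UTR cells, against 7.31, 7.20 and 7.06 in YFP- cells (0.57 ± 0.15, limma adjusted p = 0.0313). Bbs7, the remaining core subunit measured, averaged 5.86 ± 0.01, 5.74 ± 0.25 and 5.91 ± 0.08 in CDE, DDC and UTR cells, against 5.73 ± 0.57 in YFP- cells, where its arrays overlapped the others. The chaperonin-like genes Bbs10 and Bbs12, whose products help the complex assemble, did not separate the cells either. Bbs10 averaged 5.80 ± 0.05, 5.71 ± 0.21 and 5.85 ± 0.24, against 5.56 ± 0.37 in YFP- cells. Bbs12 averaged 6.17 ± 0.11, 5.64 ± 0.45 and 5.66 ± 0.34, against 5.69 ± 0.55, a UTR difference of -0.03 ± 0.33 (limma adjusted p = 0.968).

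The largest differences of the 41 members were in the polycystic genes. Bicc1, an RNA-binding protein whose loss gives polycystic kidneys in mice, averaged 11.61 with CDE and 11.56 with DDC and measured 11.61 and 11.64 in UTR cells, against 9.84, 4.66 and 5.55 on YFP- replicates 1, 2 and 3. Its YFP+ arrays were nearly equal, YFP- replicate 1 was closer to them than to the other YFP- arrays, and the difference was 4.94 ± 1.19 (30.8-fold, limma adjusted p = 0.0181). Pkhd1, which encodes fibrocystin and is mutated in autosomal recessive polycystic kidney disease with hepatic fibrosis, averaged 10.22 with CDE and 10.43 with DDC. It measured 10.20 and 10.49 in UTR cells, against 7.83, 4.43 and 4.46 on the same YFP- arrays, a difference of 4.77 ± 0.84 (27.3-fold, limma adjusted p = 0.00406). On YFP- replicates 2 and 3 Pkhd1 was only just above the lower quartile of all genes (4.359 and 4.382), and Bicc1 was also dim on replicate 2. The size of a fold difference is uncertain at such levels. Pkd1, which encodes the receptor-like polycystin of the dominant disease, did not pass the test. It averaged 7.30 ± 0.11 with CDE, 7.45 ± 0.09 with DDC and 7.31 ± 0.00 in UTR cells, against 7.19 ± 0.40 in YFP- cells (0.12 ± 0.20, limma adjusted p = 0.727), and its arrays overlapped.

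**Figure D2:**
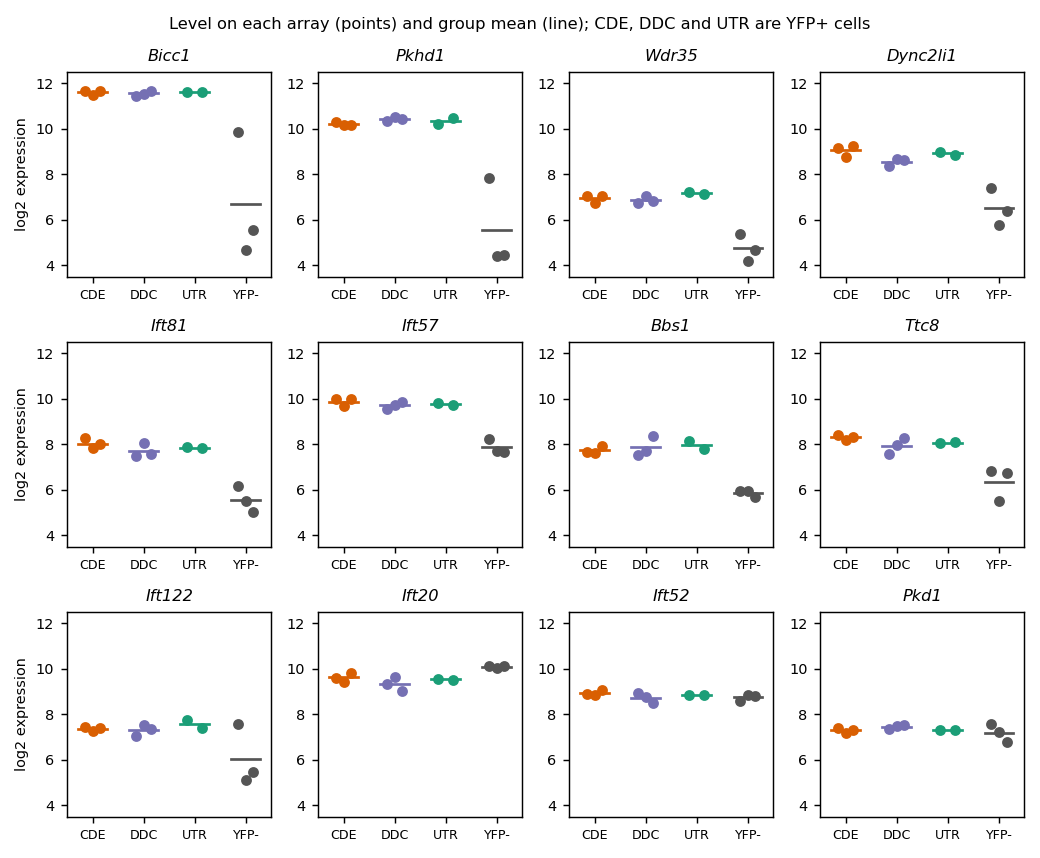
Each panel plots the log2 level of 1 member on every array, in the groups CDE, DDC, UTR and YFP-, with a bar at the group mean; the panels were chosen after the values were seen. Bicc1 and Pkhd1 are nearly level over the 8 YFP+ arrays and spread widely over the 3 YFP- arrays, with replicate 1 the highest of these.

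Of the 4 nephronophthisis genes, whose recessive mutations give cystic kidneys and sometimes liver fibrosis, 2 were higher in UTR cells. Nek8, a kinase of the inversin compartment near the base of the cilium, averaged 6.82 with CDE and 7.20 with DDC and measured 6.86 and 6.78 in UTR cells, against 5.22, 5.74 and 5.46 in YFP- cells. No arrays overlapped, and the UTR difference was 1.35 ± 0.18 (limma adjusted p = 0.00107). Nphp4, a transition zone protein, averaged 5.35 with CDE and 5.53 with DDC and measured 5.61 and 5.56 in UTR cells, against 4.95, 4.82 and 5.23 in YFP- cells (0.58 ± 0.16, limma adjusted p = 0.0328). CDE replicate 1, at 5.12, was below the highest YFP- array for Nphp4. Anks6, which binds both Nek8 and Bicc1, averaged 6.18 ± 0.10, 6.47 ± 0.05 and 6.40 ± 0.11 in CDE, DDC and UTR cells, against 6.04 ± 0.18 in YFP- cells, and did not pass the test in UTR cells (0.37 ± 0.13, limma adjusted p = 0.0809). Invs, which encodes inversin, averaged 5.85 ± 0.15, 5.65 ± 0.23 and 5.89 ± 0.04, and measured 6.59, 5.67 and 5.67 in YFP- cells (-0.08 ± 0.27, limma adjusted p = 0.869). YFP- replicate 1 was the highest of all arrays for Invs.

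The members therefore differed among the YFP- arrays as well as between the fractions. YFP- replicate 1 was the highest of the 3 YFP- arrays for 27 of 41 members (65.9%), against 31.1% of all genes, and replicate 2 was the lowest for 23 (56.1%), against 33.6%. Relative to the UTR mean, the members averaged -0.63, -1.39 and -1.10 (log2) on YFP- replicates 1, 2 and 3, and 30, 36 and 34 of them were below both UTR arrays there. The biliary marker mean was 7.84 on replicate 1, with 5.28 and 5.17 on replicates 2 and 3. Replicate 1 also had the highest mean of the endothelial markers (11.49, with 9.61 and 10.11 on replicates 2 and 3). The same held for the 9 stellate cell and fibroblast markers (7.63, with 5.65 and 6.18). The part of any of these cell types in the member levels was not tested. Without YFP- replicate 1, 24 members were called, while the count over all 23185 genes also rose, from 4373 to 5817. In that fit Bicc1 differed by 6.52 ± 0.25 (limma adjusted p = 5.59e-07) and Pkhd1 by 5.90 ± 0.13 (limma adjusted p = 7.52e-08). Ift122 then differed by 2.30 ± 0.19 (limma adjusted p = 4.61e-05). The fits that left out 1 array kept 8 of the 19 calls each time, those of Ift57, Ift81, Wdr35, Dync2h1, Dync2li1, Bbs1, Pkhd1 and Nek8. The Bicc1 difference lay between 3.93 and 6.52 in these fits and lost its call without UTR replicate 1, UTR replicate 2 or YFP- replicate 3.

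**Figure D3:**
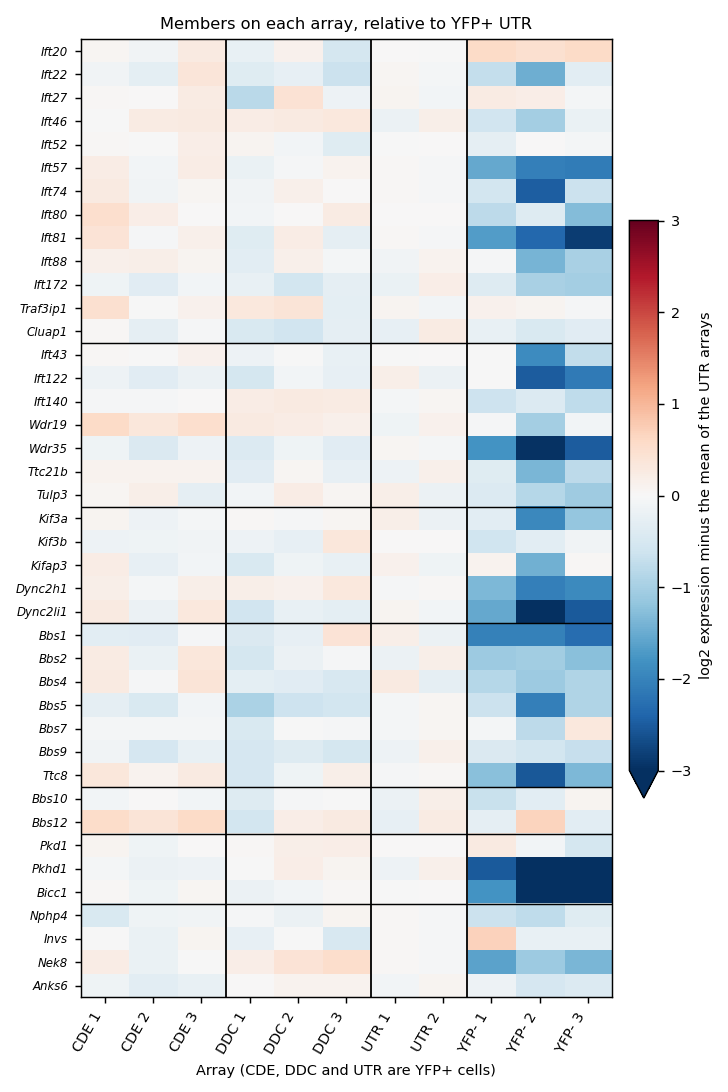
The heat map shows the log2 level of each member (down the page, by role) on each array (across), relative to the mean of the 2 UTR arrays. YFP- replicate 1 is nearer to the UTR level than replicates 2 and 3 for many members, averaging -0.63, with -1.39 and -1.10 on the others, while the YFP+ arrays average between -0.23 and 0.08.

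Taking the mean of the 3 YFP+ groups against YFP- cells uses all 8 labelled arrays but mixes the label with the diets. By this contrast 27 members were higher, against 16.3% of all genes, and 1 was lower, against 14.3% of all genes. The 27 comprised 17 of 25 intraflagellar transport genes, 5 of 9 BBSome genes and 5 of 7 cystic genes. Members called here and not in UTR cells alone were Ift46 (0.75 ± 0.17, adjusted p = 0.00793), Ttc21b (0.82 ± 0.19, adjusted p = 0.0107), Kif3a (1.12 ± 0.28, adjusted p = 0.0136), Ift74 (1.24 ± 0.36, adjusted p = 0.0281) and Ift88 (0.82 ± 0.24, adjusted p = 0.0307), all by limma. Anks6 (0.32 ± 0.10, adjusted p = 0.0336), Ift122 (1.37 ± 0.44, adjusted p = 0.0414), Wdr19 (0.60 ± 0.20, adjusted p = 0.0459) and Ift22 (0.69 ± 0.23, adjusted p = 0.0492) also passed by limma. Ift20 was the lower member (-0.59 ± 0.14, limma adjusted p = 0.00954), and Bbs9 no longer passed (0.31 ± 0.11, limma adjusted p = 0.0676).

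Other genes of the cilium were read from 10 lists outside the members, drawn up from textbook roles with earlier results of these data known. Of 112 measured genes on these lists, 38 were higher in UTR than in YFP- cells and 3 were lower, with a median difference of 0.41, against 10.4% higher, 8.46% lower and a median of -0.01 over all genes. The same shares over all genes stand behind each list below, and a list of about 10 genes with 1 called higher is at that background. The 11 further intraflagellar transport subunits had 6 higher and 0 lower, among them the dynein intermediate chain Wdr34 (1.82 ± 0.16) and the IFT-B subunit Ttc26 (1.45 ± 0.24). At the transition zone, the gate between cilium and cell body, 8 of 17 were higher and 0 lower, with Tmem231 at 2.45 ± 0.21 and Tctn1 at 1.61 ± 0.13 (limma adjusted p = 9.83e-05). Basal body and distal appendage genes had 4 of 14 higher (Ninl 2.05, Cep89 1.50, Fbf1 0.94) and 1 lower (Cep83, -1.14). Of the genes that traffic lipidated proteins and GTPases to the ciliary membrane, 3 of 11 were higher (Rab3ip 1.72, Arl3 1.38, Inpp5e 0.76) and 0 lower, and of 8 BBSome partners 2 were higher (Cep19 1.21, Rabl2 0.92) and 1 lower (Ccdc28b, -0.83).

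Genes of signalling and disease were called in part, with 10.4% of all genes higher and 8.46% lower by the same rule. Smo, the hedgehog transducer that acts in the cilium, measured 8.59 and 8.63 in UTR cells, against 7.01, 6.66 and 6.33 in YFP- cells. The hedgehog list had 4 of 11 higher in UTR cells (Evc 2.48 ± 0.29, Ptch1 2.15 ± 0.47, Smo 1.94 ± 0.21, Evc2 1.19) and 0 lower. Its transcription factors did not pass, with differences of -0.09 for Gli1, 0.12 for Gli2 and -0.31 for Gli3. They were dim, averaging 4.18, 4.70 and 3.71 in UTR cells and 4.27, 4.58 and 4.02 in YFP- cells. Gli1 and Gli3 lay under the lower quartile of all genes on the UTR arrays (4.301 and 4.328). At such levels a difference near 0 does not show equal expression. Of 10 other cyst and nephronophthisis genes, 4 were higher, namely Glis3 (4.34 ± 0.64), Glis2 (3.57 ± 0.45), Cys1 (3.37 ± 0.66) and Dzip1l (1.69 ± 0.15). The 7 polycystic liver genes that act in the endoplasmic reticulum had 2 higher (Prkcsh 0.68, Alg9 0.66) and 1 lower (Dnajb11, -0.95). Among transcription factors that regulate cilium genes, Foxj1, known for motile cilia, measured 10.50 and 9.91 in UTR cells, against 7.77, 5.83 and 5.03 in YFP- cells. It was the only one of 10 called (4.00 ± 0.68, limma adjusted p = 0.00351), while none of the 6 measured RFX genes passed (Rfx1 0.43, Rfx2 0.51, Rfx3 0.88, Rfx4 -0.05, Rfx5 0.65, Rfx7 -0.16). For Rfx1, Rfx2 and Rfx5 both UTR arrays lay above all 3 YFP- arrays, which held for 22.5% of all genes. For Rfx3, Rfx4 and Rfx7 the UTR and YFP- arrays overlapped. For the mean of YFP+ groups 4 of the 10 factors on this list were called higher, against 16.3% of all genes. Of 13 motile axoneme genes, 4 were higher (Rsph9 2.92 ± 0.50, Dnah5 1.41 ± 0.15, Rsph1 1.32, Ccdc39 0.77) and 0 lower.

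The comparisons among YFP+ cells asked whether either injury diet changed these genes in the labelled cells. No member passed the test in any of them. CDE cells against UTR cells gave 0 called members, with 0.00% of all genes called. DDC cells against UTR cells gave 0 members and 0.160% of all genes, and DDC cells against CDE cells 0 members and 1.16% of all genes. These limma fits used the 8 YFP+ arrays, and the lowest adjusted p of a member was 0.623, 0.156 and 0.156 in the same order. At an unadjusted p under 0.05 there were 1, 5 and 9 members, with 1492, 2417 and 3555 of all genes. The 95% interval of the difference stayed within 1 log2 unit of 0 for 40 of 41 members in each comparison, and over all members the bounds ran from -0.79 to 1.08, from -1.06 to 0.72 and from -1.04 to 0.69. A p that misses the threshold does not show that the diets leave these genes alone, and the comparisons with UTR cells share the same 2 UTR arrays.

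In CDE against UTR cells the median difference was -0.01 over the members and 0.00 over all genes. The cystic genes were all slightly negative (7 of 7, median -0.04), with Nphp4 at -0.23 ± 0.14 (limma adjusted p = 0.873) and Anks6 at -0.22 ± 0.10 (limma adjusted p = 0.796). Wdr19 had the lowest p, measuring 7.07, 6.84 and 7.0 in CDE cells, against 6.37 and 6.64 in UTR cells. Its groups did not overlap, but the difference of 0.46 ± 0.12 did not pass (limma adjusted p = 0.623). Ift80 differed by 0.24 ± 0.16 (limma adjusted p = 0.893), Bbs12 by 0.51 ± 0.25 (limma adjusted p = 0.811) and Bbs9 by -0.28 ± 0.15 (limma adjusted p = 0.842).

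In DDC against UTR cells 28 of 41 members had a negative difference, with a median of -0.12 over the members and 0.01 over all genes. All 9 BBSome genes were negative (median -0.17), with Bbs5 at 5.55, 5.89 and 5.95 in DDC cells, against 6.44 and 6.56 in UTR cells. These arrays did not overlap, yet the difference of -0.70 ± 0.16 did not pass over all genes (limma adjusted p = 0.156). Bbs9 differed by -0.48 ± 0.15 (limma adjusted p = 0.309), Cluap1 by -0.44 ± 0.17 (limma adjusted p = 0.422) and Ift22 by -0.42 ± 0.20 (limma adjusted p = 0.51). The cystic genes did not share this sign, with 4 of 7 positive. Nek8 measured 7.03, 7.22 and 7.35 in DDC cells, against 6.86 and 6.78 in UTR cells (0.38 ± 0.15, limma adjusted p = 0.437), and Invs differed by -0.24 ± 0.15 (limma adjusted p = 0.632). All DDC arrays lay below both UTR arrays for 9 members (22.0%), against 11.8% of all genes, and above them for 6 (14.6%), against 12.7%.

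In DDC against CDE cells 29 of 41 members were negative, with a median of -0.17 over the members and 0.01 over all genes. The BBSome median was -0.37, with 8 of 9 negative, and the intraflagellar transport median was -0.17, with 19 of 25 negative. Bbs4 measured 6.19, 6.14 and 6.0 in DDC cells, against 6.74, 6.43 and 6.87 in CDE cells, without overlap (-0.57 ± 0.16, limma adjusted p = 0.156). Dync2li1 measured 8.35, 8.69 and 8.63 in DDC cells, against 9.18, 8.75 and 9.24 in CDE cells, also without overlap (-0.50 ± 0.15, limma adjusted p = 0.178). Ift22 differed by -0.42 ± 0.18 (limma adjusted p = 0.31) and Bbs12 by -0.53 ± 0.22 (limma adjusted p = 0.31). Ift140, named here for the lowest p of the transport genes, had the opposite sign, at 7.13, 7.17 and 7.15 in DDC cells, against 6.86, 6.86 and 6.92 in CDE cells, without overlap (0.27 ± 0.08, limma adjusted p = 0.172). The cystic genes leaned the other way, with 5 of 7 positive and a median of 0.18. Anks6 measured 6.41, 6.50 and 6.50 in DDC cells, against 6.28, 6.08 and 6.18 in CDE cells (0.29 ± 0.09, limma adjusted p = 0.187), and Nek8 differed by 0.38 ± 0.13 (limma adjusted p = 0.227). All DDC arrays lay below all CDE arrays for 6 members (14.6%), against 10.6% of all genes, and above them for 3 (7.32%), against 9.64%.

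**Figure D4:**
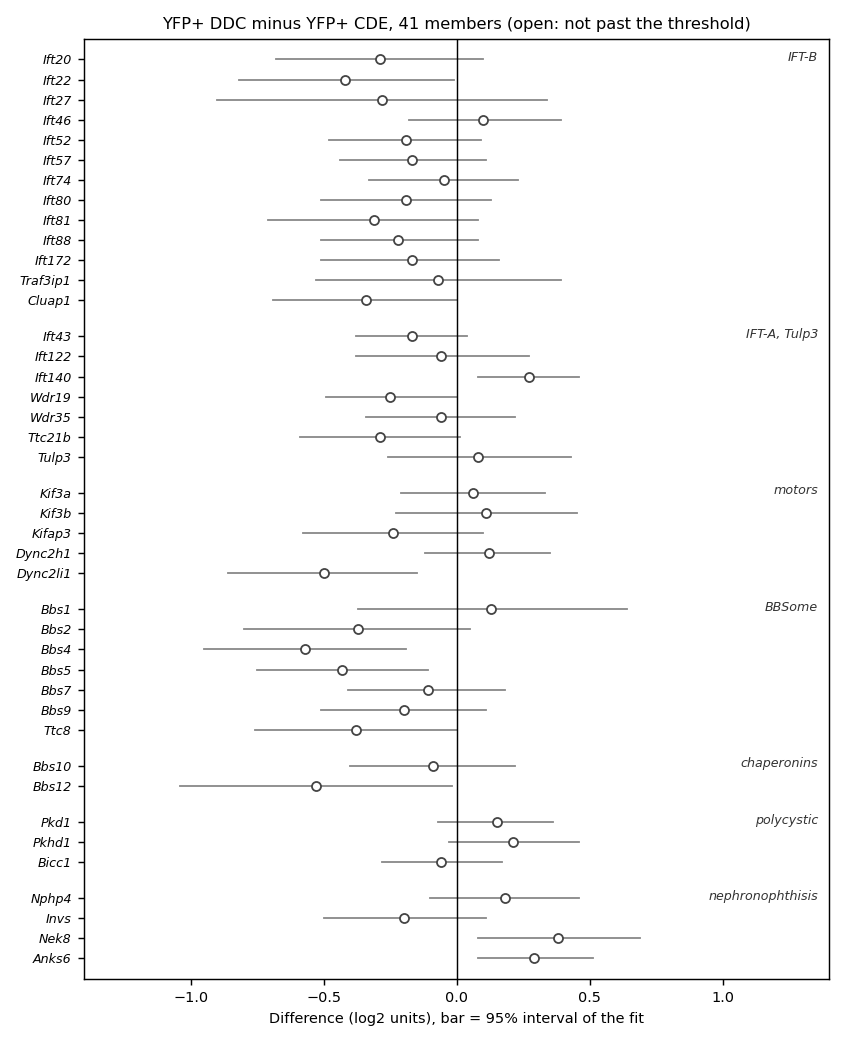
The plot shows the difference between DDC and CDE cells (log2, DDC minus CDE) for each of the 41 members, grouped by role, with 95% intervals from limma on the 8 YFP+ arrays. No point is filled, since none passed adjusted p under 0.05, and the BBSome points lie mostly left of 0 (median -0.37) and the cystic points mostly right of it (median 0.18).

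The negative medians with DDC were smaller without 1 array. DDC replicate 1 was the lowest of the 8 YFP+ arrays for 17 of 41 members (41.5%), 7 of them among the 9 BBSome genes, against 16.7% of all genes. Its BBSome genes averaged -0.51 relative to the UTR mean, with -0.20 and -0.08 on DDC replicates 2 and 3. The upper quartile of all genes was 7.519 on DDC replicate 1 and 7.632 to 7.692 on the other YFP+ arrays. Without that array the BBSome median was -0.02 for DDC against UTR cells (3 positive, 6 negative) and -0.20 for DDC against CDE cells (3 positive, 6 negative), and the median of all members was -0.02 and -0.10. After quantile normalization of the 8 YFP+ arrays the BBSome medians were -0.19 and -0.31. Cell cycle markers, whose mean was 5.72, 6.62 and 6.61 in DDC cells, against 5.07, 5.62 and 5.81 in CDE cells and 5.22 and 5.21 in UTR cells, were highest on average in DDC cells, and their part in these differences was not tested. None of the 112 cilium genes outside the members was called in any comparison of the diets.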

How the data were processed

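Total RNA of the sorted cells was measured on 11 single-colour arrays. The authors deposited 1 processed log2 value per array and feature; base 2 was inferred from their range of 2.55 to 13.57, and how background, normalization and probe summary were handled is not given in the sources used here. The number of arrays limits the precision. Of 25206 features, the platform annotation gave 1 gene symbol for 23185, all matched to a RefSeq gene number, and none for 2021, which were left out. The deposited values were used without further scaling. Groups and replicate numbers came from the sample titles.

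Tests were two-sided, with limma 3.58.1 in R 4.3.3 (lmFit and eBayes), and p-values were adjusted by Benjamini-Hochberg over all 23185 genes with a threshold of 0.05. Comparisons with YFP- cells used all 11 arrays (7 residual degrees of freedom) and those among YFP+ cells the 8 YFP+ arrays (5 residual degrees of freedom). The members, lists and settings were chosen with earlier results of these data known. Every member is named with its levels. Differences are given for members past the threshold and the 4 largest and 4 smallest others for UTR minus YFP-, for members whose call changed with the mean of YFP+ groups, and for 2 members per subgroup among the diets. From each list, up to 4 genes with the lowest p are named; the Gli and RFX genes were added after their values were seen. Differences of other members are not given, except Ift20, Ift88, Ttc21b, Pkd1 and Anks6, and Ift140 for DDC minus CDE, added after their values were seen. Alternatives were quantile normalization, centring, a filter on dim genes, array weights, trend and robust fits, a replicate block, other sets of arrays and leaving out each array. A further promoter window is not reported here.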

Additional observations from a re-analysis of the deposited data

How the results depend on the processing

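For UTR minus YFP- cells, the 19 called members were 7 with only the 5 UTR and YFP- arrays, and 9 to 24 when 1 array was left out, the lowest without UTR replicate 2 (12 without UTR replicate 1) and the highest without YFP- replicate 1. All of these were higher in UTR cells except 1 that was lower without DDC replicate 2 (17 higher) and 1 that was lower without DDC replicate 3 (16 higher). The other settings gave 15 to 20. The 4373 genes called were 931 with the 5 arrays, and 2306 to 5817 with 1 array left out. Signs were followed for the genes named by the rule for this comparison, and those of 3 members near 0 changed. Bbs12 turned to 0.02 with array weights and ranged from -0.27 to 0.29 with 1 array left out. Invs ranged from -0.24 to 0.22 and Traf3ip1 from -0.14 to 0.02 in those fits. Differences added after their values were seen, such as those of Pkd1 and the Gli and RFX genes, were not followed through all alternatives. Those near 0 may change sign too. For the mean of YFP+ groups, 7083 genes became 4534 with array weights and 4193 with weights set by fraction, an alternative chosen after seeing the data, and the 28 called members became 20 in both. For CDE minus UTR, 0 genes became 1 after centring, 1 with array weights, 1 with trend and robust fits and 0 to 46 with 1 array left out. For DDC minus UTR, 37 genes became 0 with all 11 arrays and 0 to 103 with 1 array left out. For DDC minus CDE, 269 genes became 1 with all 11 arrays and 16 to 211 with 1 array left out. The cause of these shifts was not tested. In these diet comparisons 0 members were called under any alternative run. With the replicate number as a block, the calls were 15 members and 3696 genes for UTR minus YFP-, 24 members and 6482 genes for the mean of YFP+ groups, 0 genes for CDE minus UTR, 0 for DDC minus UTR and 61 for DDC minus CDE. Deviations from the group means were correlated across genes between arrays of different groups. Pearson's r was -0.072 to 0.131 over 15 pairs with the same number (1 over 0.1) and -0.151 to 0.151 over 30 other pairs (2 over 0.1). With so few arrays per mean the deviations within a group are tied together. The check therefore cannot tell whether arrays with the same number share a mouse. The numbers were not taken as pairs. Where an arm kept 1 array, that array was assumed to vary like the other groups. The median of all genes for UTR minus YFP- was -0.01 as deposited, 0.04 after quantile normalization and -0.05 after centring, and that of the members 0.80, 0.79 and 0.76.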
